A study of Mus musculus with 6 samples.

Results

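The VEGF system of the mouse lung is described here through 9 genes, which are the ligands Vegfa, Vegfb, Vegfc and Pgf, the receptor tyrosine kinases Flt1 (VEGFR1), Kdr (VEGFR2) and Flt4 (VEGFR3), and the co-receptors Nrp1 and Nrp2. The genes were taken by symbol from the 54532 genes counted, and all 9 had enough reads to be among the 16568 genes tested. In GRdim/dim mice, a point mutation of Nr3c1, the gene of the glucocorticoid receptor (GR), keeps the receptor from dimerizing well, and GR+/+ littermates served as controls. Animals of both genotypes had the mixed background 129/SvEv x C57BL/6, were 10 to 16 weeks old, and had been anesthetized, ventilated and put through hemorrhagic shock (HS) at a mean arterial pressure of 35 mmHg for 1 h. Re-transfusion of the shed blood and 4 h of resuscitation with colloids and norepinephrine followed. From each of 3 GR+/+ mice (2 female, 1 male) and 3 GRdim/dim mice (1 female, 2 male), poly(A)-captured RNA of lung tissue gave 1 library. All 6 mice had been shocked, so the libraries compare genotypes after HS and hold no lung without shock.

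VEGF ligands are secreted dimers that bind receptor tyrosine kinases on endothelial cells. VEGF-A signals mainly through KDR and controls growth, survival and permeability of blood vessels, while FLT1 binds VEGF-A tightly with weak kinase activity and also serves VEGF-B and PlGF, the product of Pgf. VEGF-C acts through FLT4, above all in lymphatic vessels, and the neuropilins present VEGF to the receptors and also bind semaphorins. In the healthy lung, VEGF-A is made largely by the alveolar epithelium, next to the capillaries that carry its receptors.

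None of the 9 genes was a differentially expressed gene (DEG), a call that needed both a log2 fold change of more than 0.5 in size and an adjusted p-value below 0.05. This count of 0 of 9 holds for the quasi-likelihood test of edgeR, adjusted by Benjamini-Hochberg, by which 28 genes, or 0.169% of all genes tested, were DEGs. It also holds for DESeq2, which called 274 genes, or 1.7% of those it tested. At an unadjusted p-value under 0.05, edgeR listed 3 of the 9 genes, Vegfc with a higher mean and Kdr and Nrp1 with a lower mean in GRdim/dim lungs, where 9.6% of all genes passed that limit, 4.91% with a higher and 4.68% with a lower mean. DESeq2 listed 3 of 9 at the same limit, against 10.1% of all its genes. The log2 fold change was above 0 for 3 ligands and below 0 for all 5 receptors and for Vegfa, but the sign of Vegfa, Pgf, Flt4 and Nrp2 turned in at least 1 alternative fit. Libraries of the genotypes did not overlap for 2 of the 9 genes, Vegfc and Nrp1, where 14.8% of all genes tested did not overlap, that is 7.78% with higher and 7.04% with lower values in GRdim/dim lungs.

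Promoter sequence is shown for Flt1, Kdr and Nrp1, the receptor genes with the most negative log2 fold changes, for Vegfc, and for Vegfa as the most abundant ligand. These are the 120 bases before the transcription start in RefSeq (GRCm38.p6), written 5′ to 3′ along each gene's strand, at chr5:147726012-147726131 for Flt1 (minus strand), chr5:75978456-75978575 for Kdr (minus), chr8:128358953-128359072 for Nrp1 (plus), chr8:54077412-54077531 for Vegfc (plus) and chr17:46032378-46032497 for Vegfa (minus). Capitals mark the GC box GGGCGG, read on either strand.
Flt1: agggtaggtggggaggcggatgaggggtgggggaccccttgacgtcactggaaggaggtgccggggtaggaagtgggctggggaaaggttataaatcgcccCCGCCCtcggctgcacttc
Kdr: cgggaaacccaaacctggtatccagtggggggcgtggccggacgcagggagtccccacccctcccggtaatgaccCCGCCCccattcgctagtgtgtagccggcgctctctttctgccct
Nrp1: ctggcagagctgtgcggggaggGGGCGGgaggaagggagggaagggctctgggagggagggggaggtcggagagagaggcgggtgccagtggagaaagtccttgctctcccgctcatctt
Vegfc: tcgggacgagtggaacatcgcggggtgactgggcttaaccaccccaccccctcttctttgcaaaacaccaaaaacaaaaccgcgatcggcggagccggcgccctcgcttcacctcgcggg
Vegfa: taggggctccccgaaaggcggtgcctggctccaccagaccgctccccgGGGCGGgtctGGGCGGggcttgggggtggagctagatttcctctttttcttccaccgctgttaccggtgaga
Each of the 9 promoters, taken from 250 bases before to 50 after the start, held at least 1 GC box, as did 35.9% of all 27025 promoters of that length. Vegfc had 2, both outside the stretch shown. The median GC content was 70.3% over the 9 promoters and 52.7% over all promoters. TATAAA and the cAMP response element TGACGTCA were found in Flt1 alone of the 9, against 14.2% and 1.88% of all promoters, and the ETS core GGAAG in 6 of 9, against 71.1%. ACGTG, searched as a hypoxia response core (19.7% of promoters), was in 0 of 9 of these windows. Other forms of that core, such as the GCGTG in the Kdr stretch shown, were not counted. The single-arm site AGAACA of the glucocorticoid response element (19% of promoters) was also in 0 of 9. Both strands were searched, and the full palindromic glucocorticoid response element, which contains AGAACA, was likewise in 0 of 9. Only 0.0037% of all promoters held this exact full element, so its absence does not set the 9 genes apart.

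The 6 libraries held 15687734 to 32082940 counts, and the 9 genes together took 30521 to 64608 of them. Levels are given as counts per 1000000 (CPM) scaled by TMM factors, always in the order of replicates 1, 2 and 3. The lung identity of the samples was plain from their markers, with Sftpc of alveolar type 2 cells at a mean of 11339 CPM in GR+/+ and 12793 CPM in GRdim/dim lungs, and none of 13 pan-endothelial markers was at 0. Nr3c1 itself had 138, 145 and 162 CPM in GR+/+ and 159, 149 and 120.1 CPM in GRdim/dim libraries, with a log2 fold change of -0.05 (SE 0.17, adjusted p = 0.961). Counts per gene cannot show a point mutation, so this value does not check the genotype.

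Vegfa was by far the most abundant of the ligands. GR+/+ libraries had 1143, 1202 and 1092 CPM and GRdim/dim libraries 1171, 975 and 1212.5 CPM. The highest and the lowest of the 6 values both came from GRdim/dim lungs, and the groups overlapped. The means were 1146 ± 55.1 and 1120 ± 127 CPM (SD, n = 3 each), which gave a log2 fold change of -0.03 (SE 0.19, 95% interval -0.45 to 0.39, adjusted p = 0.978). A difference inside this interval could not be resolved with 3 lungs per genotype. The gene lies at chr17:46016993-46032369 on the minus strand (GRCm38) and has 8 protein-coding transcripts in GENCODE M21, whose shares gene counts do not show.

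Vegfc, the lymphangiogenic ligand at chr8:54077606-54187096, had the largest positive difference among the 9 genes. It was measured at 8.41, 9.16 and 8.40 CPM in GR+/+ lungs and at 11.5, 19.1 and 10.7 CPM in GRdim/dim lungs, from 141 to 461 reads per library. All 3 GRdim/dim values lay above all 3 GR+/+ values, and GRdim/dim replicate 2 stood apart from the other two. The means were 8.66 ± 0.433 and 13.8 ± 4.65 CPM (SD, n = 3 each), a ratio of 1.59 and a log2 fold change of 0.67 (SE 0.27, 95% interval 0.07 to 1.28). The unadjusted p-value was 0.0328 and the adjusted one 0.471 by edgeR's quasi-likelihood test, and DESeq2 gave an adjusted p of 0.352, so the difference did not pass. Without GRdim/dim replicate 2, the log2 fold change was 0.36 and the adjusted p 0.759.

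Vegfb, a ligand of FLT1, had 28.5, 36.7 and 30.2 CPM in GR+/+ and 27.1, 39.9 and 42.4 CPM in GRdim/dim lungs. Pgf, which like Vegfb acts through FLT1 and not KDR, was the lowest of the 9 genes, with 6.98, 5.27 and 3.74 CPM in GR+/+ and 4.31, 4.56 and 8.45 CPM in GRdim/dim lungs, from 80 to 131 reads. Both genes overlapped between the genotypes, and in GRdim/dim lungs their highest value was in replicate 3. The log2 fold change was 0.20 (SE 0.21, 95% interval -0.28 to 0.67, adjusted p = 0.844) for Vegfb. For Pgf it was 0.12 (SE 0.36, 95% interval -0.68 to 0.92, adjusted p = 0.961). Vegfd, the remaining ligand of FLT4 and not one of the 9 genes, ranged from 61.9 to 103.9 CPM in GR+/+ and from 39.8 to 158 CPM in GRdim/dim lungs, with a log2 fold change of 0.10 (SE 0.47, adjusted p = 0.976).

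**Figure D1:**
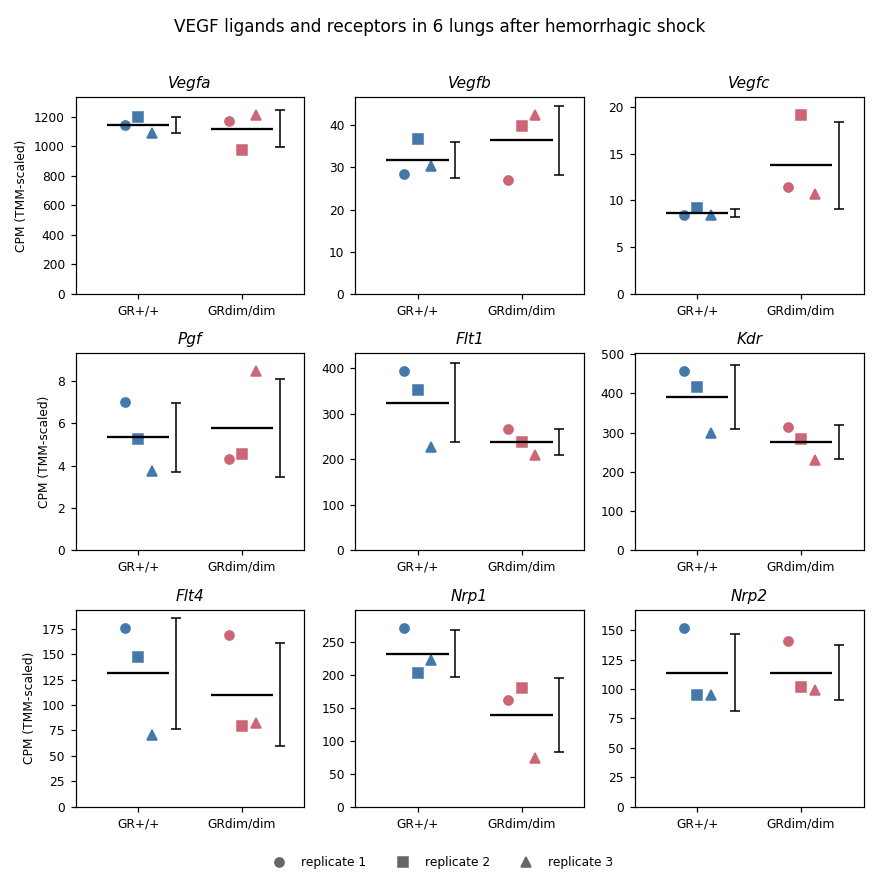
Level of each of the 9 genes in CPM (vertical axis, from 0) in the 3 GR+/+ and 3 GRdim/dim libraries, with the replicate number as the symbol, the mean as a bar and the SD beside it (n = 3). Vegfc and Nrp1 are the genes of the 9 whose groups do not overlap, and replicate 3 is the lowest for both Flt1 and Kdr in each genotype.

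Kdr, the main signaling receptor for VEGF-A, is at chr5:75932827-75978458 on the minus strand. It had 456, 416 and 299.6 CPM in GR+/+ lungs and 315, 283.5 and 229 CPM in GRdim/dim lungs. The groups overlapped by 1 pair of values, since GR+/+ replicate 3 lay below GRdim/dim replicate 1. The means were 391 ± 81.3 and 276 ± 43.5 CPM (SD, n = 3 each), a ratio of 0.706 and a log2 fold change of -0.50 (SE 0.21, 95% interval -0.97 to -0.03). Kdr did not pass edgeR's quasi-likelihood test, with an unadjusted p of 0.0396 that became an adjusted p of 0.491, nor DESeq2, with an adjusted p of 0.381.

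Flt1, the high-affinity receptor that also exists as a soluble decoy form, lies on the same chromosome at chr5:147561604-147726011. Its levels were 393, 352 and 227 CPM in GR+/+ and 267, 239 and 209 CPM in GRdim/dim lungs. GR+/+ replicate 3 again lay among the GRdim/dim values. The means were 324 ± 86.5 and 238 ± 29.0 CPM (SD, n = 3 each). The log2 fold change was -0.45 (SE 0.22, 95% interval -0.94 to 0.05), and edgeR's adjusted p was 0.576. The counts cover both protein-coding transcripts of Flt1 together, so membrane-bound and soluble forms were not separated.

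Flt4, the receptor for VEGF-C, is at chr11:49609263-49652739. It had 176, 147 and 70.1 CPM in GR+/+ and 169, 79.2 and 82.4 CPM in GRdim/dim lungs. The spread within each genotype was wide and the groups overlapped throughout. The log2 fold change was -0.25 (SE 0.37, 95% interval -1.08 to 0.58, adjusted p = 0.905), and it was 0.03 without GR+/+ replicate 1.

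Nrp1, the co-receptor that joins VEGF-A to KDR, had the largest negative difference of the 9 genes. Its levels were 272, 202 and 222 CPM in GR+/+ lungs and 162, 181 and 74.5 CPM in GRdim/dim lungs. All GRdim/dim values lay below all GR+/+ values, and GRdim/dim replicate 3 was lowest. The means were 232 ± 35.8 and 139 ± 56.7 CPM (SD, n = 3 each), a ratio of 0.599 and a log2 fold change of -0.74 (SE 0.29, 95% interval -1.38 to -0.09). The unadjusted p was 0.0292 and the adjusted p 0.456 by edgeR's quasi-likelihood test, and 0.247 after adjustment by DESeq2. Nrp1 ranked 1060 of the 16568 genes by p-value, the best rank among the 9. Adjusted p-values ranged from 0.022 to 0.796 over the alternatives and were under 0.05 only when genes with low counts were kept in the fit. Without GRdim/dim replicate 3, the log2 fold change was -0.44. The gene spans chr8:128358604-128503363 and holds the small RNA gene Mir1903, which shares 80 bases and the strand with it.

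Nrp2, the co-receptor that pairs with FLT4 in lymphatic vessels, is at chr1:62703285-62818695. It was measured at 152, 95.2 and 94.8 CPM in GR+/+ and at 141, 102 and 99.3 CPM in GRdim/dim lungs. In both genotypes replicate 1 was high and the other two were close together. The means of 114 ± 33.1 and 114 ± 23.5 CPM (SD, n = 3 each) gave a log2 fold change of -0.00041 with a 95% interval from -0.51 to 0.50.

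**Figure D2:**
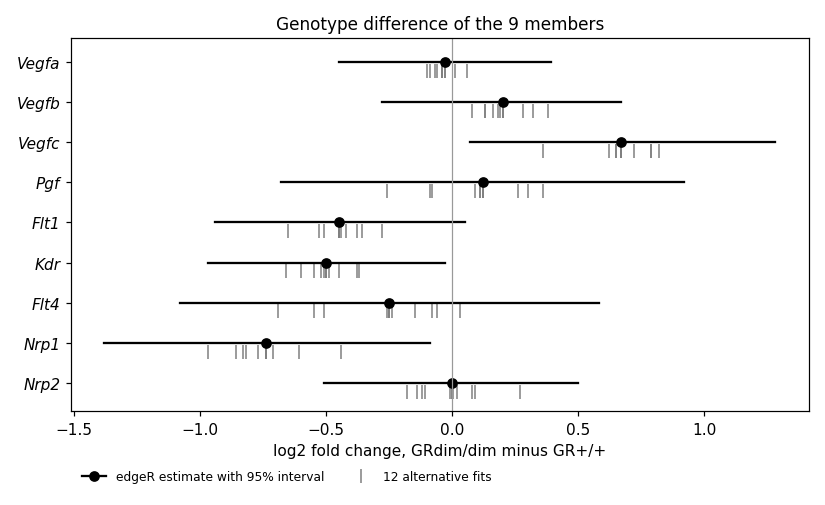
Log2 fold change of each of the 9 genes (GRdim/dim minus GR+/+, horizontal axis), with the edgeR estimate as a point, its 95% interval as a line and 12 alternative fits as ticks. The intervals of Vegfc, Kdr and Nrp1 do not reach 0 before adjustment, and for Vegfc, Flt1, Kdr and Nrp1 no alternative turned the direction.

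Sex was not balanced between the genotypes. By sex-linked genes, 1 GR+/+ and 2 GRdim/dim libraries were male. Within females (2 GR+/+ against 1 GRdim/dim) and within males (1 against 2), the log2 difference was 1.12 and 0.39 for Vegfc, -0.32 and -0.76 for Kdr, and -0.24 and -0.74 for Flt1. Nrp1 differed by -0.23 in females and by -1.31 in males. These 4 genes kept their direction in both sexes, as did Vegfb (0.26 in females, 0.25 in males) and Flt4 (-0.36 and -0.58). The direction differed for Vegfa (-0.23 in females, 0.06 in males), Pgf (0.04 and -0.21) and Nrp2 (0.10 and -0.36). In each sex 1 genotype had only 1 library, so these values cannot establish a direction. With a covariate for sex-linked expression in the edgeR fit, the log2 fold change was 0.79 for Vegfc (adjusted p = 0.439), -0.55 for Kdr (0.613), -0.51 for Flt1 (0.652) and -0.71 for Nrp1 (0.62).

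Levels of different genes were compared per length, as transcripts per 1000000 (TPM) computed from the counts and the gene lengths. Vegfa stood at 779 ± 134 TPM in GR+/+ and 744 ± 99.8 TPM in GRdim/dim lungs (SD, n = 3 each), above every receptor. It had no overlap with Kdr, the next gene in GR+/+ lungs, at 128 ± 41.5 and 87.7 ± 20.6 TPM. From Kdr down to Nrp2 at 28.4 ± 11.1 and 27.7 ± 7.95 TPM, neighbours in the order overlapped. In that stretch lay Flt1 at 71.4 ± 26.9, Nrp1 at 69.3 ± 17.1, Vegfb at 57.7 ± 12.2 and Flt4 at 48.1 ± 24.4 TPM in GR+/+ lungs. Vegfc at 10.3 ± 1.66 TPM was separated from Nrp2 in GR+/+ lungs, but at 16.01 ± 5.48 TPM not in GRdim/dim lungs, and Pgf was lowest in both, at 5.47 ± 2.25 and 5.56 ± 1.80 TPM. Summed over the 4 ligands Vegfa, Vegfb, Vegfc and Pgf, the level was 853 ± 148 TPM in GR+/+ and 829 ± 87.0 TPM in GRdim/dim lungs. Vegfa made up 91.4 ± 0.55% and 89.5 ± 2.65% of this sum. The sum leaves out Vegfd, whose mean lay above those of Vegfb, Vegfc and Pgf in both genotypes. With Vegfd counted, the share of Vegfa would be lower. The 3 receptor tyrosine kinases summed to 248 ± 92.8 and 177 ± 50.2 TPM and the neuropilins to 97.7 ± 28.2 and 68.9 ± 23.9 TPM.

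**Figure D3:**
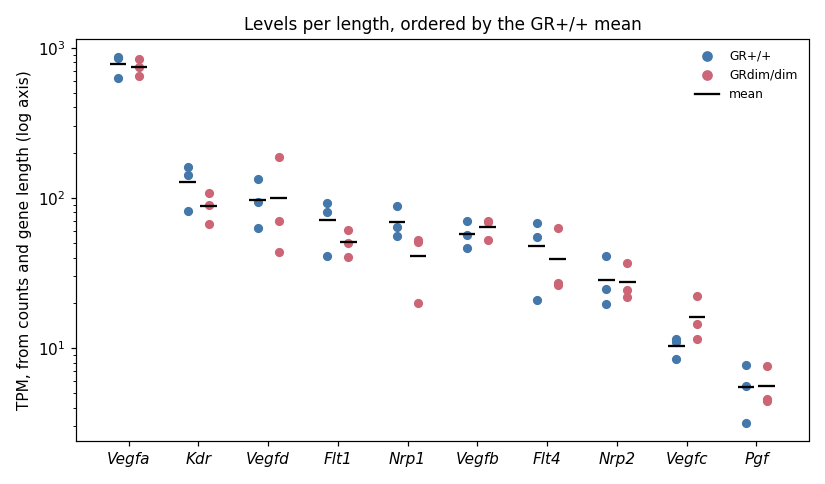
Level per length in TPM (vertical log axis) of the 9 genes and Vegfd in each library, ordered by the GR+/+ mean, with points for libraries and bars for means (n = 3 per genotype). Vegfa lies clear of all other genes in both genotypes, and Vegfc and Pgf lie at the lower end.

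Across the 6 libraries, Flt1 and Kdr followed each other closely (Pearson r = 0.97 on log2 CPM, n = 6). Kdr also moved with Nrp1 (r = 0.81) and Flt4 (r = 0.75), and Flt4 with Nrp2 (r = 0.76). Vegfa was not tied to its receptors in this way, with r = 0.16 for Kdr and 0.25 for Flt1, and its lowest r was with Vegfc (-0.69). These values describe 6 lungs that share the genotype groups, depth and tissue makeup. The genes most like Kdr were Sdk2 (r = 0.992), Exosc10 (r = 0.991), Itih5, Fbxo10 (both r = 0.988) and the endothelial adhesion molecule Pecam1 (r = 0.985), of 60 genes with r over 0.95. Most like Vegfa were Uqcc1 (r = 0.983), Trim68, Nhej1, Snhg17 and Gm43511, and most like Nrp1 were Acss3 (r = 0.993), Tex15, Sbf2, Wdr19 and Gm16365.

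Ratios within a library were compared to ask whether ligand and receptor shifted against each other. The log2 ratio of Vegfa to Kdr was 1.33, 1.53 and 1.87 in GR+/+ and 1.89, 1.78 and 2.40 in GRdim/dim lungs, a mean difference of 0.45. That of Vegfc to Flt4 was -4.37, -3.99 and -3.05 in GR+/+ and -3.87, -2.05 and -2.93 in GRdim/dim lungs, a mean difference of 0.85. Both overlapped between genotypes, with a two-sided exact permutation p of 0.2 each (0.571 adjusted over the 8 ratios tested, where 0.1 is the smallest unadjusted p possible). The log2 ratio of Flt1 to Kdr was the steadiest of the 8, at -0.28 ± 0.10 and -0.21 ± 0.06 (SD, n = 3 each; exact permutation p = 0.5).

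In bulk lung, fewer cells of a type and less RNA per cell cannot be told apart. The 13 pan-endothelial markers summed to 3534 to 5815 CPM in GR+/+ and 3759 to 4851 CPM in GRdim/dim lungs, with 10 of 13 log2 fold changes below 0 and a median of -0.19. Against the mean of these markers in the same library, Kdr differed by -0.32, Flt1 by -0.25 and Nrp1 by -0.66 on the log2 scale, with exact permutation p-values of 0.3, 0.4 and 0.3, and all 3 overlapped. With Pecam1 alone as the reference, the differences were -0.06 for Kdr, 0.02 for Flt1 and -0.39 for Nrp1. Vegfc differed by 0.78 from the endothelial mean, with all GRdim/dim libraries above all GR+/+ libraries, which gives the smallest possible exact permutation p of 0.1 (0.675 adjusted over the 9 genes). Markers of lymphatic endothelium summed to 313 to 454 CPM in GR+/+ and 501 to 1208 CPM in GRdim/dim lungs. All 5 of these markers with enough reads had log2 fold changes above 0. Ccl21a, which the count table places on a scaffold instead of a chromosome, was listed at 0 in every library. Prox1, the transcription factor that defines lymphatic endothelium, had 4.12, 4.31 and 2.60 CPM in GR+/+ and 5.76, 5.56 and 4.45 CPM in GRdim/dim lungs. Its log2 fold change was 0.53 (SE 0.31, adjusted p = 0.659 by edgeR). Prox1 and Lyve1 did not overlap between genotypes, as was so for 14.8% of all genes tested. Mmrn1, Reln and Foxc2 overlapped, with log2 fold changes of 0.24, 0.27 and 0.22. Most of the lymphatic sum was Lyve1, also found on macrophages, at 334 ± 60.6 and 696 ± 396 CPM (SD, n = 3 each; log2 fold change 1.06, adjusted p = 0.36 by edgeR and 0.0481 by DESeq2). The part of endothelial or lymphatic makeup in the differences of Kdr, Flt1, Nrp1 and Vegfc was not tested beyond these ratios.

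The surroundings of the 9 genes were read from 7 lists with 92 genes, all of which were tested. Of these, 1 gene rose and 0 fell as DEGs by edgeR, where 0.169% of all genes were called, and 13% had an unadjusted p under 0.05 by edgeR, 6 in each direction, against 9.6% of all genes. DESeq2 called 3 of the 92, Adamts1, Ccbe1 and Prkca, where it called 1.7% of all its genes. The genotypes were free of overlap for 11 genes (12%, against 14.8% of all genes). The median log2 fold change of the 92 genes was 0.04, and 0.01 over all genes tested.

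Among 5 genes for processing of VEGF ligands, all log2 fold changes were below 0, with a median of -0.24, 0 DEGs by edgeR and 1 gene, Ccbe1, at an unadjusted p under 0.05. Ccbe1, the secreted cofactor that allows cleavage of pro-VEGF-C, had 37.5, 30.8 and 22.1 CPM in GR+/+ lungs and 11.8, 10.3 and 5.87 CPM in GRdim/dim lungs. The groups were far apart, with a log2 fold change of -1.68 (SE 0.30). edgeR's quasi-likelihood test gave an adjusted p of 0.0714, above the threshold, and DESeq2 gave 1.24e-05, with a range of 6.98e-08 to 0.227 over all alternatives. Adamts3, the protease that Ccbe1 activates, was measured at only 0.967 to 4.25 CPM (log2 fold change -0.46, SE 0.47, adjusted p = 0.831). Furin, a proprotein convertase that cleaves VEGF-C, had means of 191 ± 29.1 and 162 ± 10.2 CPM (SD, n = 3 each; adjusted p = 0.726).

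Of 13 genes known to be induced by VEGF in endothelial cells, 1 was a DEG by edgeR, which called 0.169% of all genes. At an unadjusted p under 0.05 by edgeR, 4 had a higher and 2 a lower mean in GRdim/dim lungs. Over all genes tested, 4.91% passed that limit with a higher and 4.68% with a lower mean. Adamts1, a protease that can also bind VEGF-A, rose from 211, 89.4 and 97.7 CPM in GR+/+ to 533, 908 and 540 CPM in GRdim/dim lungs. All GRdim/dim values lay far above the GR+/+ values, with a log2 fold change of 2.32 (SE 0.36) and an adjusted p of 0.0423 by edgeR's quasi-likelihood test and 3.86e-10 by DESeq2. The edgeR call was lost when any library but GR+/+ replicate 1 was left out, with adjusted p-values from 0.0709 to 0.139, and with a term for sex (0.0658), while the log2 fold change stayed between 2.02 and 2.82. Esm1, a marker of VEGF-stimulated endothelium, had 103.6, 68.4 and 74.2 CPM against 173, 95.9 and 177 CPM (log2 fold change 0.86, adjusted p = 0.31), and the groups overlapped. Pdgfb, by which endothelium recruits pericytes, had 152, 166 and 100.4 CPM against 89.1, 80.7 and 96.0 CPM (log2 fold change -0.65, adjusted p = 0.338). Nr4a1, an immediate-early gene, had a log2 fold change of 1.78 with the large SE of 0.57 (adjusted p = 0.374). The list as a whole had 9 log2 fold changes above and 4 below 0, with a median of 0.12.

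**Figure D4:**
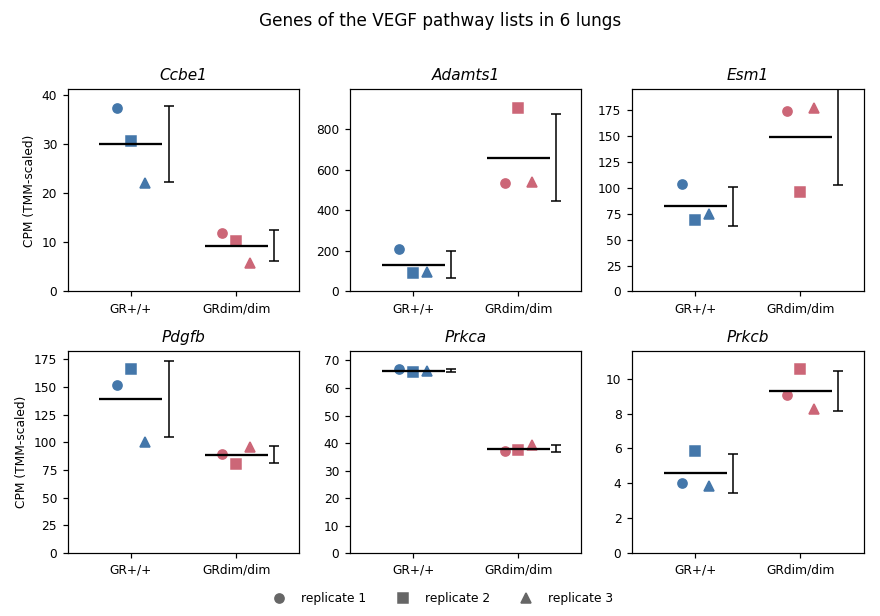
Level in CPM (vertical axis, from 0) of 6 genes of the pathway lists in the 3 GR+/+ and 3 GRdim/dim libraries, with the replicate number as the symbol, the mean as a bar and the SD beside it. Ccbe1, Pdgfb and Prkca lie lower and Adamts1 and Prkcb higher in all GRdim/dim libraries, Esm1 overlaps, and only Adamts1 passed edgeR's threshold.

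The 43 genes of intracellular VEGF signaling had a median log2 fold change of 0.07 and 0 DEGs by edgeR, with Prkca and Prkcb at an unadjusted p under 0.05. Prkca, the protein kinase C isoform that acts below PLC-gamma, had 66.8, 65.8 and 66.0 CPM in GR+/+ and 37.3, 37.4 and 39.3 CPM in GRdim/dim lungs. The replicates of each genotype were nearly equal and the groups clearly apart (log2 fold change -0.80, SE 0.15, adjusted p = 0.0961 by edgeR and 0.00551 by DESeq2). Prkcb, a second isoform that B cells also express strongly, had 3.999, 5.87 and 3.84 CPM against 9.05, 10.5 and 8.25 CPM (log2 fold change 1.03, adjusted p = 0.262). B cell markers lay higher in the same libraries, with sums of 84.0 to 173 CPM in GR+/+ and 202 to 716 CPM in GRdim/dim lungs, most of it from Ighm and Igkc, 7 of 7 log2 fold changes above 0 and none of the 7 at 0. Their part in the Prkcb values was not tested. Cdc42, a GTPase of cell migration, had a log2 fold change of 0.36 without overlap of the groups (adjusted p = 0.564).

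The lists for oxygen sensing, semaphorins with plexins, and modulators of the receptors held 0 DEGs among 8, 12 and 10 genes by edgeR and by DESeq2, and 1, 2 and 0 genes at an unadjusted p under 0.05 by edgeR, which 9.6% of all genes reached. Epas1, which encodes HIF-2alpha and is abundant in lung endothelium, had means of 2901 ± 648 and 2061 ± 356 CPM (SD, n = 3 each; log2 fold change -0.49, adjusted p = 0.557 by edgeR). Egln3, a prolyl hydroxylase that is itself induced by HIF, had 3.66 ± 1.25 and 6.26 ± 1.23 CPM (log2 fold change 0.78, adjusted p = 0.491). Of the partners of Nrp1, the plexins Plxna2 and Plxna1 had log2 fold changes of -0.67 and -0.46 (adjusted p = 0.443 and 0.521 by edgeR). The ligand Sema3a had one of -0.47 (adjusted p = 0.556 by edgeR). Over the 12 semaphorins and plexins, 5 log2 fold changes were above and 7 below 0, with a median of -0.10 and a highest value of 0.20. The receptor modulators, among them the phosphatase Ptprb and the adaptor Gipc1, had log2 fold changes between -0.46 and 0.34 with a median of -0.08.

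**Figure D5:**
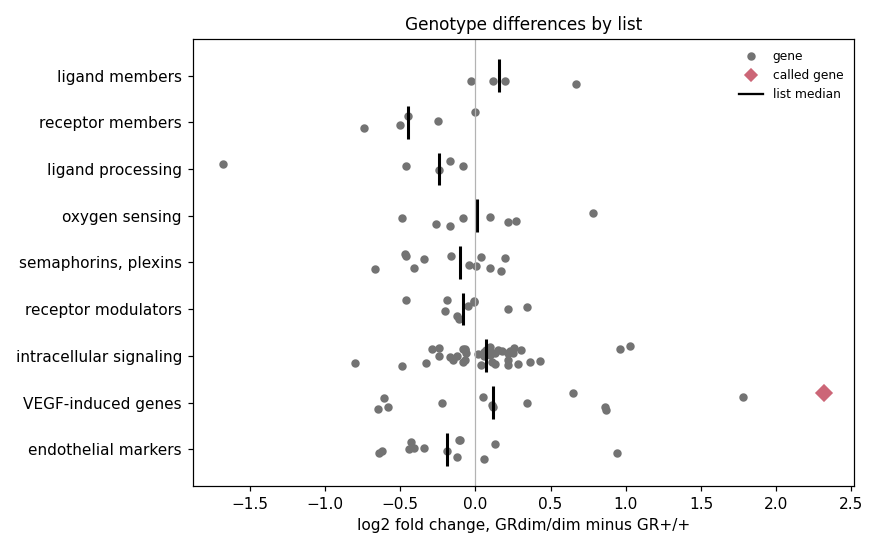
Log2 fold change (GRdim/dim minus GR+/+, horizontal axis) of every gene in the lists, with 1 row per list, points for genes, a diamond for the DEG and a bar for each list's median. The 4 ligands have a median of 0.16 and the 5 receptors one of -0.45, the endothelial markers one of -0.19, and Adamts1 is the lone DEG.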

How the data were processed

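RNA was sequenced from lung tissue of 3 GR+/+ and 3 GRdim/dim mice after HS, 1 library per mouse, and group and replicate number were taken from the sample labels. The authors deposited raw counts of reads per gene, not normalized and not pooled, with coordinates and a gene length for each gene. The submitters' processing notes name the build mm10 and DESeq2, while the aligner, the counting tool and the use of strand were not given in the sources used here. Coordinates and exonic lengths of all 9 genes were identical to GENCODE M21 (GRCm38). At most 0.811% of their windows of 31 bases occurred in another gene's transcripts.

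Libraries of 1 genotype differed by a chi-square of 20.9 to 70.1 per gene over 6 pairs, and were kept as separate replicates. The test was edgeR 4.0.16 in R 4.3.3 (TMM scaling, filterByExpr, robust quasi-likelihood fit on genotype) over 16568 genes with Benjamini-Hochberg adjustment. Genes were called at an adjusted p under 0.05 and a log2 fold change beyond 0.5, the study's limits. Ratios used log2 CPM with a prior count of 2 and two-sided exact permutation tests over the 6 libraries. TPM were computed from the counts and the deposited lengths. On 5 simulated data sets (16308 to 16342 genes), edgeR found 34% of 2-fold and 84.6% of 4-fold changes, with 9.60% false calls. DESeq2 1.42.0 found 52.2% and 89.6%, with 22.5% false calls.

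Named were the 9 genes, Vegfd, Nr3c1, the called genes and up to 4 genes with the smallest p-values of each pathway list, the most abundant marker of cell type lists, and the 5 genes most correlated with Kdr, Vegfa and Nrp1. Prox1, Cldn5 and other markers beyond this rule were named after their values were seen. The genes, the lists and the rules were chosen with earlier results of these data known. Promoters came from RefSeq, where all 9 genes were found. RefSeq starts differ from the gene bounds of the count table for several genes, and the Nrp1 start lies inside them. Results were recomputed with DESeq2, with RLE scaling, with all genes kept or only those with at least 10 counts in every library, with replicate numbers as a block, with a sex-linked covariate, with a prior count of 0.5, with Pecam1 as the reference, and leaving out each library. The table has no column of other samples and no gene without a name.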

Additional observations from a re-analysis of the deposited data

How the results depend on the processing

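Over 108 alternative values of the 9 genes, 11 turned direction and 1 became a call, and 0 of the 48 values of Vegfc, Kdr, Flt1 and Nrp1 turned. Without a filter on low counts, 522 genes were called, among them Nrp1 as 1 of the 9 genes (log2 fold change -0.74, adjusted p = 0.022), and 5 genes of the pathway lists, and 19 of the 92 pathway genes had an unadjusted p under 0.05. DESeq2 called 274 genes in all and 3 pathway genes, and a sex-linked covariate left 0 pathway genes called. Leaving out each library gave 4 to 22 calls, 0 to 0 of the 9 genes, 0 to 1 pathway calls and 9 to 15 pathway genes at an unadjusted p under 0.05. The fewest calls, 4, came without GR+/+ replicate 2, and 12, 17 and 14 came without GR+/+ replicates 1 and 3 and GRdim/dim replicate 3. Log2 fold changes with a library left out ran from -0.09 to 0.06 for Vegfa, -0.26 to 0.36 for Pgf, -0.69 to 0.03 for Flt4, -0.18 to 0.27 for Nrp2, -0.74 to 0.43 for Vegfd, -0.35 to 0.02 for Pcsk5 and -0.13 to 0.06 for Nr3c1. The difference of the Flt4 to Kdr ratio ran from -0.0022 to 0.47. Relative to endothelial markers, the differences ran from -0.53 to 0.19 for Flt4, -0.09 to 0.39 for Nrp2, -0.01 to 0.30 for Vegfa and -0.01 to 0.46 for Pgf. With Pecam1 as the reference they were 0.19 for Flt4 and 0.02 for Flt1. Pgf was at -0.08 with the sex-linked covariate, and Nrp2 at 0.0028 with at least 10 counts in every library. The cause of these shifts was not tested. Only the fits with a library left out had fewer samples, and the other alternatives used every library.

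The sample labels do not say whether equal replicate numbers pair the libraries. Deviations of same-numbered libraries from their group means correlated at 0.22, 0.04 and -0.05, and those of other pairs at -0.27 to 0.19. Not every library correlated best with its own number. With 3 libraries per genotype, these values can neither establish nor exclude a pairing. With the replicate number as a block, 34 genes and 0 of the 9 were called, Nrp2 was at 0.02 and Vegfd at -0.14. Ccbe1 was then called (log2 fold change -1.71, adjusted p = 0.0273), and Adamts1 was not (2.38, adjusted p = 0.0814).

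Pgf, the lowest of the 9 genes, had 80 to 131 reads per library. With 1 library per mouse, spread between mice and between preparations cannot be told apart. The p-values of edgeR and DESeq2 set the genotype difference against the spread between libraries within a genotype.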

Other observations

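Markers of the cells that could carry the VEGF genes were read in the same libraries, as values with no explanation. By edgeR, 0 of the 98 markers tested in 16 cell type lists were DEGs, and 20 with higher and 6 with lower means in GRdim/dim lungs had an unadjusted p under 0.05, where 4.91% of all genes passed with a higher and 4.68% with a lower mean. DESeq2 called 6 of them, Cldn5, Lyve1, Igkc and Retnlg with higher and Fibin and Chil3 with lower means, where it called 1.7% of all its genes. Of 6 markers of alveolar capillary cells known as aerocytes, which carry much Kdr, 3 had an unadjusted p under 0.05, and they are named here after their values were seen. Car4 (log2 fold change 0.72, adjusted p = 0.398) and Apln (0.87, adjusted p = 0.386) had higher means and Fibin (-0.82, adjusted p = 0.22) a lower mean in GRdim/dim lungs, so the list had no common direction. Of 5 markers of general capillary cells, Aplnr (0.90, adjusted p = 0.36) and Gpihbp1 (0.46, adjusted p = 0.481) had unadjusted p-values under 0.05 by edgeR, both with higher means. In the same list, Plvap was at 0.20, Kit at 0.14 and Cd93 at -0.47, so these markers did not all share a direction. Of the 13 pan-endothelial markers, Cldn5, a tight junction protein, had 418, 441 and 369 CPM in GR+/+ and 535, 696 and 1118 CPM in GRdim/dim lungs (log2 fold change 0.94, adjusted p = 0.288 by edgeR and 0.0273 by DESeq2). Ramp2 (-0.64, adjusted p = 0.496) and Sox17 (-0.62, adjusted p = 0.505) had lower means.

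Among the epithelial sources of Vegfa, the 7 markers of alveolar type 1 cells had a median log2 fold change of -0.29 and the 6 of type 2 cells one of -0.11, and their summed levels overlapped between genotypes. Of the immune lists, the 6 T cell markers had a median of 0.75, the 5 NK cell markers of 1.25 and the neutrophil markers of 0.95, each with all tested genes above 0. Alveolar macrophage markers summed to 337 to 380 CPM in GR+/+ and to 178 to 270.4 CPM in GRdim/dim lungs. Most of this gap lay in Chil3, with 244, 249.9 and 264 CPM in GR+/+ and 161, 156 and 95.4 CPM in GRdim/dim lungs. The other 5 markers each overlapped between genotypes. Their log2 fold changes were -0.70 for Marco, -0.39 for Ear2, -0.03 for Mrc1, -0.01 for Pparg and 0.32 for Siglecf.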
